A study of Mus musculus with 4 samples.

Results

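The genes described here are 10 products of enteroendocrine cells, the hormone-secreting cells of the gut lining. They are 8 hormone or peptide genes (Sst, Gip, Cck, Ghrl, Gcg, Pyy, Nts and Tac1), 1 granule gene (Chga) and 1 gene of serotonin synthesis (Tph1). They were chosen by name, with earlier results of these data known. Of the 10, 10 had a probe set of their own among the 19938 genes on the arrays. Gene expression was measured on 4 Affymetrix arrays, 1 for each combination of genotype and sorted fraction, in crypt cells of the small intestine of adult mice. Zip7 KO cells came from Zip7flox/flox mice and control cells from Zip7flox/+ mice. Mice of both genotypes carried villin-CreERT2, in which the villin promoter drives Cre in the gut epithelium, and Lgr5-EGFP-ires-CreERT2, the stem cell reporter used for sorting, and were given tamoxifen for 2 days. The controls therefore had 1 floxed copy of Slc39a7 (Zip7) under the same drivers and are not wild type. The sorted fractions carry the labels Lgr5-Hi and Lgr5-Med (Lgr5-Mid in the titles). The labels do not say how many mice were pooled for an array.

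Enteroendocrine cells are rare secretory cells that descend from the stem cells at the crypt base through precursors expressing Atoh1 and then Neurog3. Each cell packs peptide hormones, cut from larger precursors, into dense granules together with chromogranins, and releases them toward the blood when it senses nutrients or irritants. Subsets are known by their main product: D cells by somatostatin, K cells by GIP, I cells by cholecystokinin, L cells by proglucagon peptides and peptide YY, N cells by neurotensin, and enterochromaffin cells by serotonin. ZIP7 moves zinc out of the endoplasmic reticulum, where hormone precursors fold, and the study concerned its part in crypt proliferation and stem cell maintenance.

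All values are RMA levels read as log2, so a difference of 1 is 2-fold. An expression floor was taken per array as percentile 95 of 1203 odorant, vomeronasal and trace amine receptor genes. It lay at 6.17 on the Zip7 KO array labelled Lgr5-Hi, 6.25 on the control array with that label, 6.15 on the Zip7 KO array labelled Lgr5-Med and 6.10 on the control array with that label. Each group is a single array without replicates, so no difference was tested and no p-value is given. Probe sets differ in how they respond, so levels are compared between arrays for a gene and never between genes.

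Checks of the labels touch every comparison below. Lgr5 ran against the fraction labels, at 7.93 on the Zip7 KO array labelled Lgr5-Hi and 7.79 on the control array with that label, against 11.24 and 10.97 on the Zip7 KO and control arrays labelled Lgr5-Med. The 12 stem cell markers examined were all lower under the label Lgr5-Hi, with median differences of -1.44 in Zip7 KO and -1.23 in control. Directions between fractions are therefore those of the labels only. Slc39a7 itself was at 9.02 in Zip7 KO against 8.92 in control under Lgr5-Hi, and at 8.22 against 8.61 under Lgr5-Med, and whether its probes lie in the floxed exons is unknown here. Xist, which coats the inactive X chromosome, was below the floor on both Zip7 KO arrays and at 11.64 and 11.84 on the control arrays, so sex and genotype cannot be told apart.

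Upstream sequences of 4 of the genes are shown because these genes were alike in being higher in the same fraction, while Sst and Gip lay on the other side of 0 from Gcg and Chga between genotypes. They are the 250 bases before the annotated start, on the gene's strand, from RefSeq's GRCm38.p6 table. They lie at chr16:23890845-23891094 (minus strand) for Sst, chr11:96024295-96024544 (plus strand) for Gip, chr2:62483654-62483903 (minus strand) for Gcg and chr12:102554691-102554940 (plus strand) for Chga. Capitals mark matches, on either strand, to 4 short motifs: TGACGT, the core of the cAMP response element, the E-boxes CAGATG and CAGCTG, to which basic helix-loop-helix factors such as NEUROD1 can bind, and AGATAA, which GATA factors can bind.
Sst promoter: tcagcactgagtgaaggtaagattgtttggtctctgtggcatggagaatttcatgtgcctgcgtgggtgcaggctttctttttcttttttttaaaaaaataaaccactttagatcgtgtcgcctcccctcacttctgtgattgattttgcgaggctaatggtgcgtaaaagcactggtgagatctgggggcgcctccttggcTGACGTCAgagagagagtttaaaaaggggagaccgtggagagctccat
Gip promoter: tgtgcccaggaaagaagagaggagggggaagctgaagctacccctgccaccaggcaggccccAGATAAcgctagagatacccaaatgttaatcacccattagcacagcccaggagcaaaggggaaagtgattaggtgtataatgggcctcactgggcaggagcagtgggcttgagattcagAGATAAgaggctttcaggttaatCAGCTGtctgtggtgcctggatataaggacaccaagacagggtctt
Gcg promoter: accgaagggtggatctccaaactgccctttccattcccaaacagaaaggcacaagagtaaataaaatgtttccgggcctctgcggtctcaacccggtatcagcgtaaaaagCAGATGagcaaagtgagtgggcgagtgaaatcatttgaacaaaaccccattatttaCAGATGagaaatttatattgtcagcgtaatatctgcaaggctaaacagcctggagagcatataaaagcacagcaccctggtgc
Chga promoter: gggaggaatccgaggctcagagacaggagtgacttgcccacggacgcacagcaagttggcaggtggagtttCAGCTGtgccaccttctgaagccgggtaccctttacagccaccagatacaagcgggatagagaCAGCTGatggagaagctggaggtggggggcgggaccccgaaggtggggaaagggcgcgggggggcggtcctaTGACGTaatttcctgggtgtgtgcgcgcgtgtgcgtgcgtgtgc
The Sst window holds the full palindrome TGACGTCA, with its first base 48 bases before the start, which is the element through which CREB is known to act on this gene. It contains TGACGT on both strands. The Chga window holds TGACGT 44 bases before the start, without the full palindrome. The Gcg window holds 2 copies of CAGATG, at 139 and 83 bases before the start. The Gip window holds CAGCTG at 46 bases before the start and AGATAA at 188 and 69.

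The table gave 15 start windows for the 10 genes. TGACGT was in 2 of the 15 windows (Sst and Chga) and in 6.47% of all 32851 windows of that length, and TGACGTCA was in 1 of the 15 (Sst) and in 1.55% of all windows. CAGATG was in 3 of the 15 (Cck, Gcg and Tac1), against 14.4% of all windows. CAGCTG was in 4 of the 15 (Chga, Ghrl, Gip and Nts), against 13% of all. AGATAA was also in 4 of the 15 (Cck, Gip, Nts and Tac1), against 9.99% of all. None of the 4 short motifs was shared by more than 4 of the 10 genes, and a match describes these letters and not a binding site.

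The first pair of comparisons set the fraction labelled Lgr5-Hi against that labelled Lgr5-Med within each genotype. Most of the genes were far higher under the label Lgr5-Hi. Sst, Gip, Cck, Ghrl, Gcg, Tac1, Chga and Tph1 were each at least 4.04-fold higher in Zip7 KO and at least 4.21-fold higher in control. These 8 genes were all among the 20 largest increases of all genes in either genotype, and 7 of the 10 were among the 10 largest. Pyy was under 2-fold higher in both genotypes by the deposited values, and Nts was above the floor on 1 of the 4 arrays. In these bulk populations, more endocrine cells and more hormone RNA per cell cannot be told apart.

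**Figure D1:**
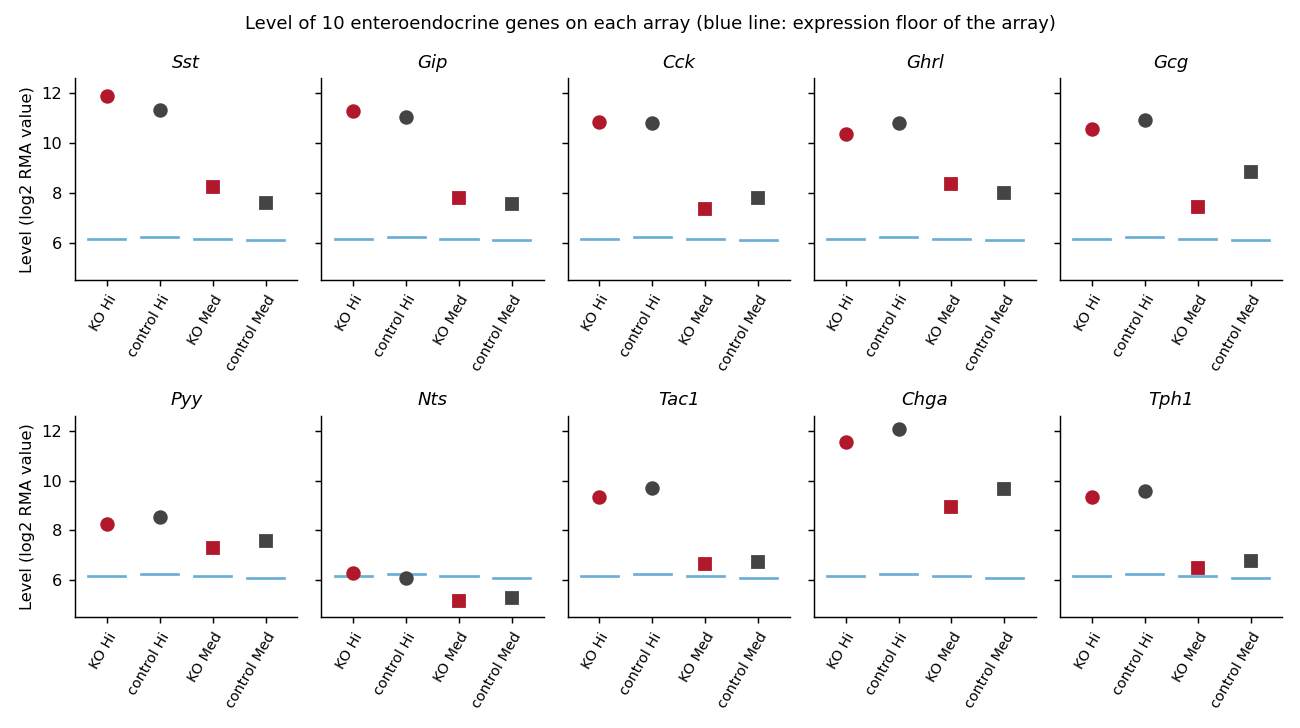
Level of each of the 10 genes (y axis, log2 RMA value) on the 4 arrays (x axis), with Zip7 KO in red, control in grey, circles for the label Lgr5-Hi, squares for Lgr5-Med, and a blue line at the array's expression floor. Of the 10 genes, 9 lie above the floor on every array, and Nts lies above it only on the Zip7 KO array labelled Lgr5-Hi, at 6.28.

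Sst encodes somatostatin, the D cell peptide that restrains the release of other gut hormones. It was at 11.89 on the Zip7 KO array labelled Lgr5-Hi, 11.33 on the control array with that label, 8.22 on the Zip7 KO array labelled Lgr5-Med and 7.60 on the control array with that label. Both Lgr5-Hi arrays were above both Lgr5-Med arrays, by 3.67 in Zip7 KO (12.7-fold) and 3.74 in control (13.3-fold). It had the largest increase of the 12158 genes compared in Zip7 KO and of the 12252 compared in control.

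Gip encodes the K cell incretin that promotes insulin release after a meal. Its levels in the same order were 11.29, 11.04, 7.82 and 7.55. Its fraction differences were 3.47 in Zip7 KO and 3.49 in control, rank 3 and rank 2 among all genes. Gip thus followed the same order of arrays as Sst, with Zip7 KO above control under each label.

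Cck encodes cholecystokinin, the I cell hormone that contracts the gallbladder and stimulates pancreatic enzyme secretion. It was at 10.85 in Zip7 KO and 10.80 in control under Lgr5-Hi, and at 7.37 in Zip7 KO and 7.81 in control under Lgr5-Med. Its fraction differences were 3.48 in Zip7 KO (11.2-fold, rank 2) and 2.98 in control (7.91-fold, rank 3). The arrays labelled Lgr5-Hi were nearly level and the spread lay between the arrays labelled Lgr5-Med.

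Ghrl encodes ghrelin, the appetite peptide made mainly in the stomach and also in the upper small intestine. It was at 10.36 in Zip7 KO and 10.81 in control under Lgr5-Hi, and at 8.35 in Zip7 KO and 7.99 in control under Lgr5-Med. The control pair was farther apart, by 2.82 (7.07-fold, rank 5), than the Zip7 KO pair, by 2.02 (4.04-fold, rank 20).

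Gcg encodes proglucagon, from which L cells cut GLP-1 and GLP-2. It was at 10.55 in Zip7 KO and 10.93 in control under Lgr5-Hi, and at 7.42 in Zip7 KO and 8.85 in control under Lgr5-Med. Here the Zip7 KO pair was the farther apart, by 3.13 (8.75-fold, rank 4), against 2.08 in control (4.21-fold, rank 16). Of the 4 arrays, the Zip7 KO array labelled Lgr5-Med was lowest by more than 1 log2 unit.

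Pyy encodes peptide YY, the satiety peptide also made by L cells. It was at 8.25 in Zip7 KO and 8.52 in control under Lgr5-Hi, and at 7.28 in Zip7 KO and 7.59 in control under Lgr5-Med. Its fraction differences, 0.97 (1.96-fold, rank 240) and 0.93 (1.91-fold, rank 106), were the smallest among the 9 genes measured above the floor on every array. The other L cell gene, Gcg, differed by more than 2 log2 units in either genotype.

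Nts encodes neurotensin, the N cell peptide, which is made mostly in the lower small intestine. It was at 6.28 in Zip7 KO and 6.09 in control under Lgr5-Hi, and at 5.16 in Zip7 KO and 5.29 in control under Lgr5-Med. Only the first of these was above its array's floor, so the fraction difference in Zip7 KO is at least 0.13 with the floor in place of the low value (1.12 as deposited), and the control difference has no measured size.

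Tac1 encodes the precursor of substance P and neurokinin A, which mouse enterochromaffin cells express. It was at 9.35 in Zip7 KO and 9.70 in control under Lgr5-Hi, and at 6.64 in Zip7 KO and 6.74 in control under Lgr5-Med. The fraction differences were 2.71 (6.55-fold, rank 6) and 2.97 (7.81-fold, rank 4).

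Tph1 encodes tryptophan hydroxylase, the rate-limiting enzyme of serotonin synthesis in the gut. It was at 9.34 in Zip7 KO and 9.60 in control under Lgr5-Hi, and at 6.50 in Zip7 KO and 6.78 in control under Lgr5-Med. The fraction differences of 2.84 in Zip7 KO and 2.81 in control were nearly equal, at ranks 5 and 6. Tph1 and Tac1, both enterochromaffin genes, kept the same order of arrays, which Chga, Gcg and Pyy had too.

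Chga encodes chromogranin A, the acidic protein that helps form the dense core of the granules. It was at 11.54 in Zip7 KO and 12.06 in control under Lgr5-Hi, and at 8.95 in Zip7 KO and 9.66 in control under Lgr5-Med. The fraction differences were 2.58 (5.98-fold) in Zip7 KO and 2.40 (5.29-fold) in control, at rank 8 in each.

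Counted together, 10 of 10 genes compared in Zip7 KO were higher under the label Lgr5-Hi, against 49.3% of all genes. At least 2-fold higher were 9 of them by the deposited values, against 1.87% of all genes compared, and 8 of them with the floor in place of low values. Nts was compared in Zip7 KO only because it passed the floor under Lgr5-Hi, which fixed its direction. The 9 genes measured on both arrays were all higher. The genes were chosen with earlier results of these data known, so these shares describe them and are not a test. In control, Nts was below the floor on both arrays. Of the 9 genes compared there, 9 were higher, against 43.3% of all genes, and 8 were at least 2-fold higher, against 0.669% of all genes. The median difference was 2.78 in Zip7 KO and 2.82 in control, where all genes compared had medians of -0.0045 and -0.04. Over all genes in control, 82 passed 2-fold upward and 64 downward, or 110 and 45 with the arrays shifted to a common median.

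**Figure D2:**
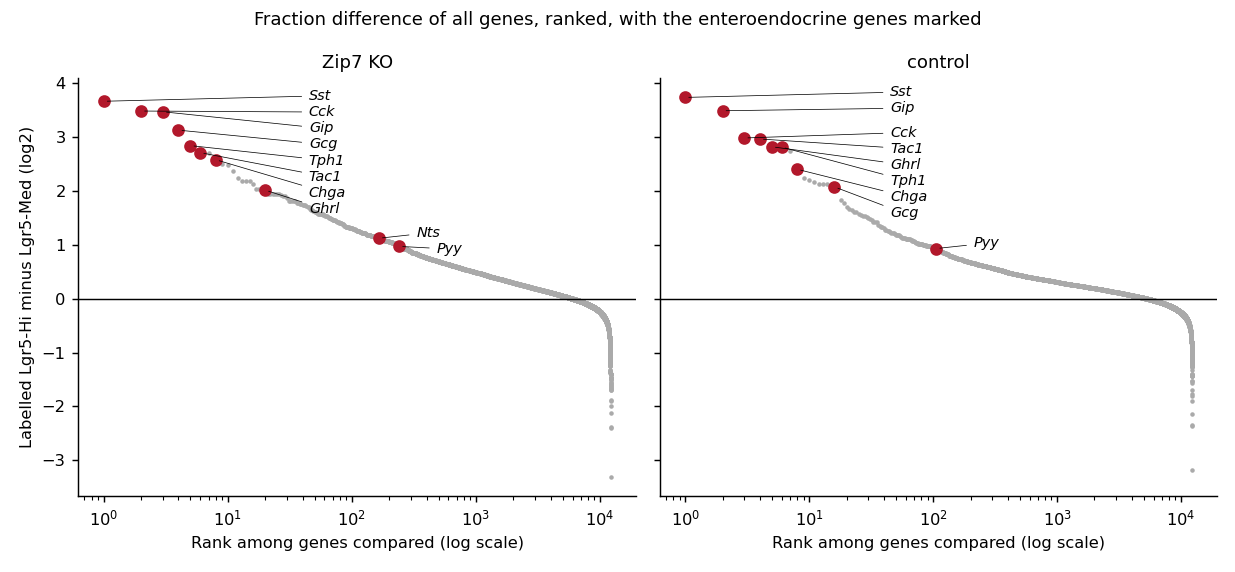
Difference between the array labelled Lgr5-Hi and that labelled Lgr5-Med (y axis, log2) against rank (x axis, log scale) for all genes above the floor of either array, in Zip7 KO (left) and control (right), with the hormone and granule genes in red. Sst has rank 1 in both panels, and the value of Nts in the Zip7 KO panel rests on a level below the floor under Lgr5-Med.

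Markers of other secretory cells were also higher under the label Lgr5-Hi, and their part in the result was not tested. Of all genes compared, 49.3% were higher in Zip7 KO and 43.3% in control. All 12 Paneth cell markers above the floor were higher in each genotype, with a median difference of 1.45 in Zip7 KO and 1.02 in control. All 12 goblet cell markers were higher too, with medians of 1.28 and 0.98. Capn9 and Bcas1 among them were below the floor in Zip7 KO under Lgr5-Med. They were compared in Zip7 KO only because they passed it under Lgr5-Hi, which fixed their direction. Of 10 tuft cell markers, 8 were higher in Zip7 KO and 9 in control, with medians of 0.37 and 0.69. The largest single differences in these lists, 2.25 for the goblet cell gene Clca1 in Zip7 KO and 1.61 for the Paneth cell gene Pnliprp2 in control, were below those of Sst, Gip, Cck, Gcg, Tac1, Tph1 and Chga in the same genotype. Ghrl was below Clca1 in Zip7 KO, at 2.02, and above Pnliprp2 in control, at 2.82. Pyy was below them in both genotypes, at 0.97 and 0.93, and Nts was above the floor on only 1 array. The epithelial gene Epcam was level, at 11.62 in Zip7 KO and 11.57 in control under Lgr5-Hi and 11.66 and 11.59 under Lgr5-Med.

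Neurons of the gut wall express Sst and Tac1 as well. Of 14 markers of enteric neurons and glia, 12 had a probe set and 5 were above the floor on at least 1 array. The neuronal genes Elavl4, Tubb3, Stmn2, Uchl1 and Nos1 and the glial genes S100b and Gfap were below it on all 4 arrays. The 5 detected were Elavl3, Ret, Prph, Hand2 and Sox10, and their median difference between the labels was 0.12 in Zip7 KO and 0.09 in control. Ret was higher under Lgr5-Hi by 0.54 in Zip7 KO and 0.65 in control, and Prph by 0.23 and 0.32. The part of neurons in the levels of Sst and Tac1 was not tested.

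The other endocrine genes were examined in 6 further lists. Of 26 genes of granule proteins and prohormone processing, 20 were compared between the labels in Zip7 KO and 19 in control. Under Lgr5-Hi 19 of 20 were higher in Zip7 KO, all but Mboat4 at -0.03, and 19 of 19 in control, against 49.3% and 43.3% of all genes. The medians were 0.89 and 0.84. By the deposited values 9 and 8 were at least 2-fold higher, against 1.87% and 0.669% of all genes, or 6 and 7 with the floor in place of low ones. Only 12 of the genes in each genotype were above the floor under Lgr5-Med. The rest were compared only because they passed it under Lgr5-Hi, which fixed their direction. Chgb, the second chromogranin, was at 10.93 in Zip7 KO and 11.44 in control under Lgr5-Hi, and at 8.44 and 8.70 under Lgr5-Med. Pcsk1, the convertase that cuts prohormones, was higher by 2.19 in Zip7 KO and 2.21 in control. Pam, which amidates peptide ends, was higher by 1.15 and 1.27, Ptprn2, a granule membrane protein, by 1.12 and 1.25, and Snap25, a SNARE of vesicle release, by 1.04 and 1.03.

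Several granule genes were below the floor under Lgr5-Med, so that their differences are lower bounds. With the floor in place, the calcium-binding protein gene Scgn was higher by at least 1.83 in Zip7 KO and 2.05 in control. On the same basis the carboxypeptidase gene Cpe was higher by at least 0.70 and 1.14, and the granin gene Scg3 by at least 0.42 and 0.52. Rab3c, a vesicle GTPase, was at 6.18 in Zip7 KO and 6.23 in control under Lgr5-Hi, next to the floor.

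Other hormone genes were mostly not detected. Of 18 such genes, 17 had a probe set and 4 were above the floor on any array. Sct, which encodes secretin, was at 8.46 in Zip7 KO and 8.71 in control under Lgr5-Hi, and at 7.21 and 7.17 under Lgr5-Med, a difference of 1.25 in Zip7 KO and 1.54 in control. Ppy and Npy differed between the labels by -0.11 and -0.15 in Zip7 KO and by 0.11 and -0.08 in control. Ucn3, a urocortin, was above the floor under Lgr5-Hi only, at 6.22 in Zip7 KO and 6.54 in control.

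In the list of amine synthesis and transport, Slc18a1, which loads serotonin into vesicles of enterochromaffin cells, was higher by 1.52 in Zip7 KO and 1.64 in control. It was the 1 gene of the 10 compared to pass 2-fold, which 1.87% of all genes did upward in Zip7 KO and 0.669% in control. Ddc, the decarboxylase that follows Tph1, was higher by 0.82 and 0.59, and enterocytes also express it. Gch1, which starts the synthesis of the hydroxylase's cofactor, was higher by 0.92 and 0.56.

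Of 19 endocrine lineage transcription factors compared, 15 were higher under Lgr5-Hi in each genotype, against 49.3% of all genes in Zip7 KO and 43.3% in control. The medians were 0.61 in Zip7 KO and 0.80 in control. Only 15 of the factors in Zip7 KO and 17 in control were above the floor under Lgr5-Med. Pax6 and Isl1 in Zip7 KO, and Etv1 and Runx1t1 in both genotypes, were compared only because they passed it under Lgr5-Hi. That fixed their direction. Mnx1 in Zip7 KO passed the floor only under Lgr5-Med. Neurod1, which acts after Neurog3, was higher by 2.04 and 2.06, Rfx6 by 1.39 and 1.78, and Atoh1 by 1.03 and 1.12. Neurog3 itself was at 8.87 in Zip7 KO and 9.19 in control under Lgr5-Hi, and at 8.26 and 8.25 under Lgr5-Med. Sox4, an early progenitor factor, was on the other side, at -0.70 and -0.79. Insm1 differed by 0.63 in Zip7 KO and 1.33 in control, and Isl1 by at least 0.90 in Zip7 KO and by 1.11 in control. Pax6 was higher by at least 1.13 in Zip7 KO and by 0.86 in control. Etv1 and Runx1t1 were below the floor under Lgr5-Med, and were higher by at least 0.47 and 0.44 in Zip7 KO and by at least 0.45 and 0.43 in control.

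Among the sensors of endocrine cells, Trpa1, the irritant channel of enterochromaffin cells, was below the floor under Lgr5-Med in both genotypes and higher under Lgr5-Hi by at least 0.94 in Zip7 KO and 1.30 in control. Gfra3, a receptor of the GDNF family, was higher by 1.08 and 1.32. Abcc8, a subunit of the ATP-sensitive potassium channel, was higher by 0.93 and 0.71, and its partner Kcnj11 differed by -0.10 and 0.11. Olfr558, an odorant receptor, was at 6.37 in Zip7 KO and 6.35 in control under Lgr5-Hi and at 6.30 and 6.26 under Lgr5-Med, next to the floor. It is itself among the receptor genes that set the floor, and was left out of the counts.

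The second pair of comparisons set Zip7 KO against control under each fraction label. The genotype differences ran in both directions. In the 9 genes measured above the floor on every array they were smaller in size than the fraction differences of the same gene. The largest genotype difference was that of Gcg, at -1.43 under Lgr5-Med, where its fraction differences were 3.13 in Zip7 KO and 2.08 in control. Sst and Gip were higher in Zip7 KO under both labels, and Chga, Gcg, Pyy, Tac1 and Tph1 were lower under both. Cck and Ghrl had opposite signs under the 2 labels. Under Lgr5-Hi, 0 of 10 genes differed at least 2-fold, against 0.483% of all genes compared, and under Lgr5-Med 1 of 9 did, Gcg, against 0.685% of all genes.

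**Figure D3:**
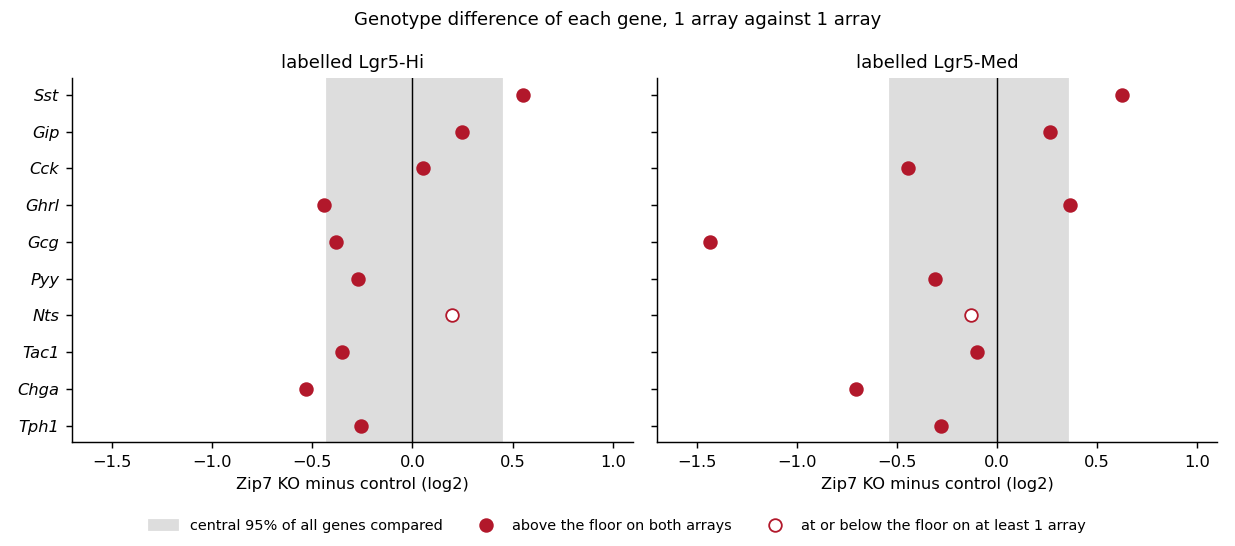
Zip7 KO minus control (x axis, log2) for each of the 10 genes under the labels Lgr5-Hi (left) and Lgr5-Med (right), with a grey band over the central 95% of all genes compared. Sst lies right of the band and Chga left of it in both panels, and Gcg stands at -1.43 under Lgr5-Med.

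Sst was higher in Zip7 KO by 0.55 under Lgr5-Hi (1.47-fold) and by 0.62 under Lgr5-Med (1.54-fold). It stood at rank 151 of 12017 and rank 34 of 12257 from the top. Gip was higher by 0.25 and 0.27, at ranks 1469 and 748, which is within the central 95% of all genes (-0.43 to 0.45 under Lgr5-Hi and -0.54 to 0.36 under Lgr5-Med). The D cell gene was thus outside that range under both labels and the K cell gene inside it.

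Chga differed by -0.53 under Lgr5-Hi (1.44-fold lower in Zip7 KO) and by -0.71 under Lgr5-Med (1.63-fold lower). It stood at rank 154 and rank 162 from the bottom, outside the central 95% of all genes under both labels. The somatostatin gene and the chromogranin gene therefore differed unequally: the genotype difference of Sst exceeded that of Chga by 1.08 under Lgr5-Hi and 1.33 under Lgr5-Med.

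Gcg differed by -0.38 under Lgr5-Hi and by -1.43 under Lgr5-Med, where it was 2.70-fold lower in Zip7 KO and at rank 28 from the bottom. The other L cell gene, Pyy, differed by -0.27 and -0.31, within the central 95% of all genes. The difference of Gcg under Lgr5-Hi exceeded that under Lgr5-Med by 1.05, where the central 95% of the 11848 genes compared under both labels ran from -0.40 to 0.57. This difference between differences was not tested.

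The enterochromaffin genes were below 0 under both labels. Tph1 differed by -0.25 under Lgr5-Hi and -0.28 under Lgr5-Med, and Tac1 by -0.35 and -0.10. All of these were within the central 95% of all genes. Slc18a1 differed by -0.33 and -0.21.

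Cck differed by 0.05 under Lgr5-Hi, a sign that turned to -0.01 with quantile normalisation and to -0.03 with the trend on mean level removed, and by -0.45 under Lgr5-Med. Ghrl differed by -0.44 under Lgr5-Hi and by 0.36 under Lgr5-Med, just outside the central 95% of all genes under each label and on opposite sides. Mboat4, the enzyme that puts the fatty acid on ghrelin, differed by -0.36 under Lgr5-Hi and by at least 0.27 under Lgr5-Med, where its control level was below the floor. Nts was higher by at least 0.04 in Zip7 KO under Lgr5-Hi and was below the floor on both arrays labelled Lgr5-Med.

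Counted over the genes compared, 6 of 10 were lower in Zip7 KO under Lgr5-Hi, against 45% of all genes, and 6 of 9 under Lgr5-Med, against 55.8% of all genes. The medians were -0.26 and -0.28, where all genes had medians of 0.02 and -0.03. Both shares are of few genes and stand near the share over all genes.

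The granule and processing list was lower in 19 of 20 genes under Lgr5-Hi, with a median of -0.17, and in 8 of 13 under Lgr5-Med, with a median of -0.13. Of all genes compared, 45% were lower under Lgr5-Hi and 55.8% under Lgr5-Med. The 19 include Rab3c, which was below the floor in control, so its direction was not measured. The 8 under Lgr5-Med include Syt7, which was compared only because it passed the floor in control. No difference in the granule list reached 2-fold. Chgb differed by -0.51 and -0.26, and Cpe by -0.39 under Lgr5-Hi. Scg2, secretogranin II, was the 1 gene above 0 under Lgr5-Hi, at 0.20. The transcription factor list was lower in 14 of 19 under Lgr5-Hi and 12 of 17 under Lgr5-Med, with medians of -0.25 and -0.12. Mnx1 under Lgr5-Hi, and Pax6 and Isl1 under Lgr5-Med, were below the floor in Zip7 KO. They were compared there only because they passed it in control, which all but fixed their direction. Atoh1 differed by -0.56 and -0.46, Mnx1 by -0.59 under Lgr5-Med, and Pdx1, a factor of the upper small intestine, by 0.20 and 0.32.

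The amine list was divided, with 5 of 10 genes lower under Lgr5-Hi and 9 of 9 under Lgr5-Med, against 45% and 55.8% of all genes. The medians were 0.05 and -0.19. Maoa, which breaks down serotonin, was higher by 0.59 under Lgr5-Hi and differed by -0.11 under Lgr5-Med. Gch1 differed by 0.32 and -0.03, and Spr, another enzyme of cofactor synthesis, by -0.14 and -0.19. Sct differed by -0.25 and 0.04, Ppy by -0.02 and 0.19 and Npy by -0.06 and 0.02.

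**Figure D4:**
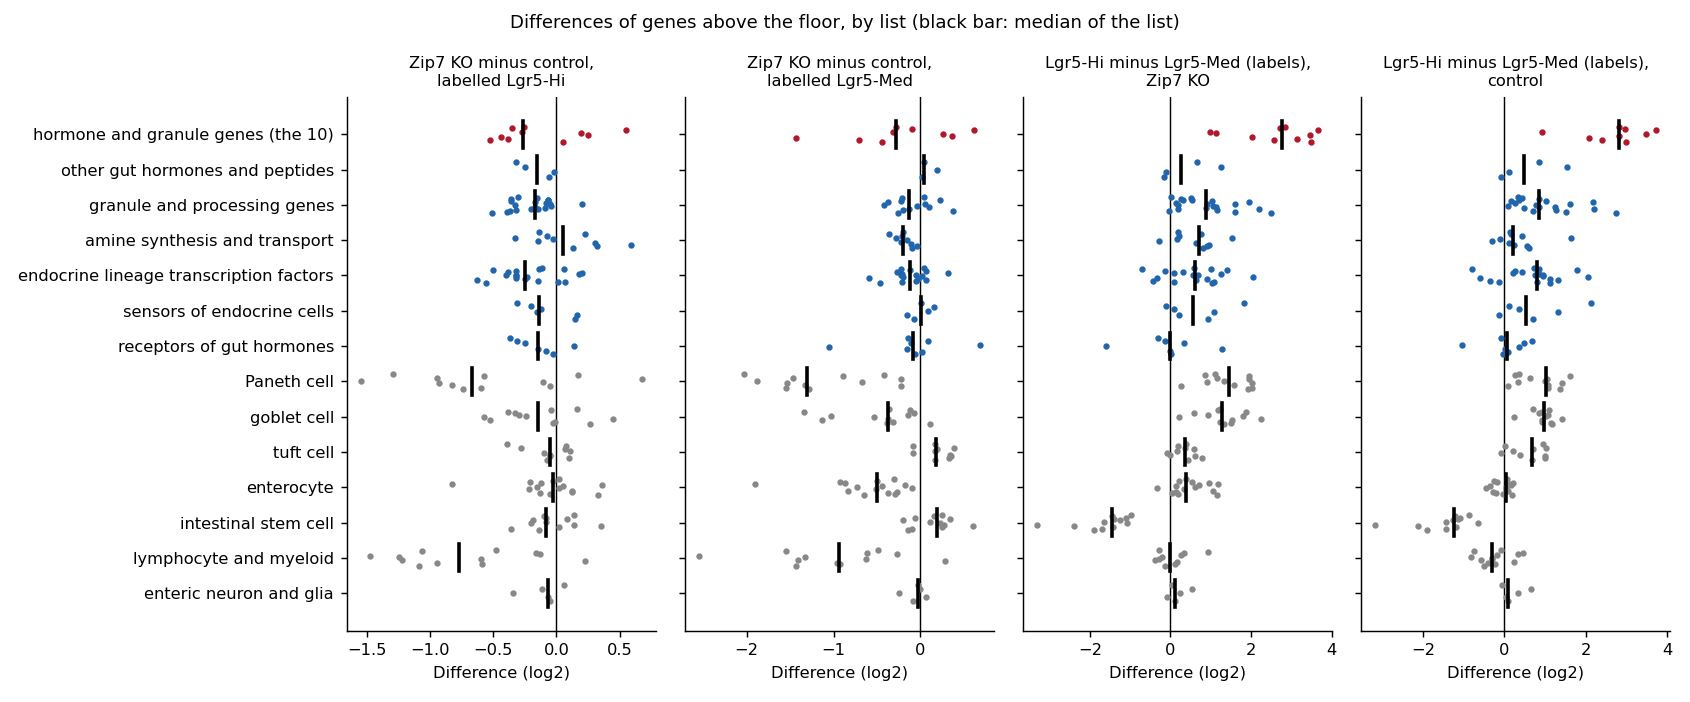
Differences (x axes, log2) in the 4 comparisons for genes above the floor of either array, by gene list (y axis), with 1 point per gene and a black bar at the list's median. The 10 hormone and granule genes are in red, other endocrine lists in blue and other cell types in grey, and the red medians stand at 2.78 and 2.82 between the labels and at -0.26 and -0.28 between genotypes.

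Markers of other cells also differed between the genotypes, and their part in the differences of the hormone genes was not tested. Of all genes compared, 45% were lower in Zip7 KO under Lgr5-Hi and 55.8% under Lgr5-Med. Of 12 Paneth cell markers, 10 were lower in Zip7 KO under Lgr5-Hi and 12 under Lgr5-Med, with medians of -0.67 and -1.31. Their median level was 10.25 in Zip7 KO and 11.05 in control under Lgr5-Hi, and 8.35 and 9.93 under Lgr5-Med. Goblet cell markers were lower in 9 and 11 of 12, with medians of -0.14 and -0.37. The 11 include Capn9 and Bcas1, which were below the floor in Zip7 KO, so their direction was not measured. Of 12 lymphocyte and myeloid markers compared, 11 were lower under each label, with medians of -0.77 and -0.94. Ptprc and Cd3g under each label, and Itgae under Lgr5-Med, were below the floor in Zip7 KO. They were compared only because they passed it in control, which all but fixed their direction. The median level of the 13 markers above the floor on any array was 6.86 in Zip7 KO and 7.57 in control under Lgr5-Hi. Under Lgr5-Med it was 6.65 and 8.20. The 15 enterocyte markers had a median of -0.03 under Lgr5-Hi and -0.50 under Lgr5-Med, and the tuft cell markers -0.05 and 0.18.

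The 2 kinds of comparison share arrays, so their values are only set side by side. Of the 9 genes above the floor on every array, Cck, Gcg, Pyy, Chga and Tph1 had the larger fraction difference in Zip7 KO. Sst, Gip, Ghrl and Tac1 had the larger one in control. Over the 11848 genes compared between genotypes under both labels, the fraction difference in Zip7 KO minus that in control had a median of 0.06. The signs for Pyy and Tph1 turned with a common median and with the loess trend removed. The fraction difference in Zip7 KO minus that in control was -0.07 for Sst, -0.02 for Gip, 0.04 for Pyy and 0.03 for Tph1. It was largest in size for Gcg, at 1.05, and Ghrl, at -0.81.

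The genes most like each hormone gene across the arrays were sought among 511 genes that spanned at least 2-fold and were above the floor on at least 1 array. Likeness was the Euclidean distance, in log2 units, between profiles of 4 arrays centred on their mean, and 4 points describe a profile only coarsely. The nearest to Sst was Gip at 0.40, the nearest to Gip was Sst, and Cck was next for both, at 0.96 from Sst and 0.58 from Gip. Tac1 and Tph1 were each other's nearest, at 0.15, followed by Chgb at 0.27 from Tac1 and 0.28 from Tph1. Cck was nearest to Tph1, at 0.47.

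Chga was nearest to Chgb, at 0.34, and then to Reg4, a lectin gene of endocrine cells, at 0.44. Gcg was nearest to Reg4, at 0.38, and then to Chga, at 0.54. Reg4 was at 11.78 in Zip7 KO and 12.11 in control under Lgr5-Hi, and at 9.08 and 10.28 under Lgr5-Med. Its Zip7 KO level under Lgr5-Med was the lowest of the 4, as for Gcg but also for Cck, Pyy, Tac1, Chga, Tph1 and Chgb. Ghrl was nearest to Gpx3, an extracellular glutathione peroxidase, at 0.45, to Pcsk1 at 0.46 and to Scgn at 0.46, where Gpx3 and Scgn were below the floor on both arrays labelled Lgr5-Med. Pyy was nearest to Elapor1, Stxbp5l and Slc12a8, at 0.06, 0.09 and 0.10, where Stxbp5l was below the floor on both arrays labelled Lgr5-Med. Nts was nearest to Vstm5, Runx1t1 and S100a16, at 0.06, 0.10 and 0.11, where Runx1t1 was below the floor on both arrays labelled Lgr5-Med and Nts on 3 of the 4 arrays. Distances that rest on levels below the floor have no firm order.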

How the data were processed

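The authors deposited log2 values per probe set, made with RMA per the submitters' processing notes, and they were used as deposited. The log base and the software version are not stated. The values ran from 3.08 to 14.6, with array medians of 6.34 to 6.45, and were read as log2 on that basis. Of 35557 probe sets, the 21789 with a single symbol in the platform annotation were used, and 1621 with several symbols and 12147 unlisted ones were not. Where a gene had several probe sets, that of highest mean was taken.

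Compared in each of the 4 comparisons were genes above the floor of either array, receptor genes left out. For bounds ("at least"), the floor replaced a lower level. Counts and medians used deposited values. The counting was tested on simulated data, with the changed genes well above the floor and changed by more than 2-fold. That test does not show how the counts behave near the floor or near 2-fold. Only 1 array per group limits the precision.

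The 10 genes and all lists were chosen with earlier results of these data known. Named from each further endocrine list were the 2 genes of highest and the 2 of lowest mean genotype difference and any past 2-fold. Ddc, Neurog3, Sox4 and Derl3 were added after their values were seen. Alternatives were quantile normalisation, a common median, removal of the loess trend, the mean of a gene's probe sets, and floors at percentile 90 or 99 or none. Python 3.11.15, pandas 2.3.3 and statsmodels 0.14.6 were used.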

Additional observations from a re-analysis of the deposited data

Results flagged for a closer look

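For Cck and Ghrl the genotype difference had opposite signs under the 2 fraction labels, each from 1 array against 1 array, and the difference between the labels was not tested. For Ghrl, Zip7 KO minus control was -0.44 under Lgr5-Hi and 0.36 under Lgr5-Med, a difference of -0.81, which was outside the central 95% of all genes (-0.40 to 0.57). For Cck the values were 0.05 and -0.45, a difference of 0.50, which was inside it. The sign of the Cck value under Lgr5-Hi turned with quantile normalisation and with removal of the loess trend, so that both its values were then below 0.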

How the results depend on the processing

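The 4 counts of genes past 2-fold were recomputed under 7 alternatives. The count between genotypes was 0 under Lgr5-Hi and 1 under Lgr5-Med in each of them, and the count between fractions ranged from 8 to 9 in Zip7 KO and from 8 to 9 in control. Pyy passed 2-fold between fractions in control with a common median, at 1.02, and without the loess trend, at 1.01. Its value as deposited was 0.93. The single differences moved by at most 0.14 under the 3 rescalings and stayed as they were with the mean of probe sets, since each of the 10 genes has 1 probe set. Among them the sign turned for Cck between genotypes under Lgr5-Hi, at -0.01 with quantile normalisation and -0.03 without the loess trend. It also turned for the difference between the labels of the genotype differences of Pyy (-0.07 with a common median and -0.07 without the trend, 0.04 as deposited) and Tph1 (-0.08 and -0.06, 0.03 as deposited). A paired fit, with the fraction label as a block for the genotype, has 2 pairs of arrays and 1 residual degree of freedom, and was not run. The mean genotype difference over the 2 pairs was 0.59 for Sst, -0.62 for Chga and -0.91 for Gcg. Signal over background limits Nts, which was above the floor on 1 of 4 arrays. Genotype is confounded with sex, and fraction labels run against Lgr5.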

Other observations

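Receptors for gut hormones were mostly near or below the floor, with 9 of 18 above it on at least 1 array. Htr4, a serotonin receptor, was lower under Lgr5-Hi, as the stem cell markers were. It was at 7.21 in Zip7 KO and 7.07 in control under Lgr5-Hi, and at 8.81 in Zip7 KO and 8.12 in control under Lgr5-Med, so that its fraction differences were -1.60 and -1.05. Its genotype difference under Lgr5-Med was 0.69. Glp1r, the receptor of the Gcg product GLP-1, was at 6.74 in Zip7 KO and 6.88 in control under Lgr5-Hi, and under Lgr5-Med it was below the floor in Zip7 KO and at 6.53 in control, a difference of -0.38 or lower with the floor in place. Sstr1, a somatostatin receptor, was above the floor only on the control array labelled Lgr5-Hi, at 6.27, and Sctr, the secretin receptor, only on the Zip7 KO array labelled Lgr5-Med, at 6.18.

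Of the 10 largest fraction increases in Zip7 KO, the 3 that were not among the hormone and granule genes described above were Reg4 at 2.70, Derl3, a gene of protein degradation at the endoplasmic reticulum, at 2.50, and Chgb at 2.49. In control they were Chgb at 2.74, Gpx3 at 2.24 by the deposited values and at least 2.18 with the floor in place of its level under Lgr5-Med, and Pcsk1 at 2.21.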
